A study of Mus musculus with 6 samples.

Results

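The Hox genes of the Hoxa, Hoxb, Hoxc and Hoxd clusters were followed across 3 *Nanos2* genotypes of the fetal mouse testis. The members were 38 named Hox genes, each taken from the array probes whose transcript accession matched the gene in a RefSeq table. A probe was matched for 36 of the 38 genes (45 probes in all, and more than 1 probe for 9 of the genes), out of 16535 genes with a matched probe on the array. *Hoxc6* and *Hoxc11* were without a matched probe and were not analysed here. Of the 36 genes, 30 were bright enough to be tested between genotypes, as were 12982 genes of the array.

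The RNA came from E14.5 male gonads (embryonic, in mid-gestation), and each genotype was represented by 2 arrays described as biological duplicates. Nanos2+/- gonads, with 1 working *Nanos2* allele, were the controls. Nanos2-/- gonads lacked the gene through a LacZ knock-in allele. Nanos2-/-_Tg+ gonads had the same null background and carried the transgene 3×FLAG-tagged *Nanos2*-ΔN10, which encodes NANOS2 without its first residues and was driven by the *Nanos2* enhancer in 1 transgenic line, which is meant for male gonocytes. The mice were of mixed background, and whether the gonads of several embryos were pooled for an array is not given in the sources used here. The gonad is a mixture of germ cells and somatic cells, and fewer cells of one type and less RNA per cell cannot be told apart in such samples. Both Nanos2+/- arrays lay on 1 slide with its own scan time, and the 4 arrays of the other genotypes lay on a second slide. Slide and genotype therefore cannot be told apart wherever Nanos2+/- is one side of a comparison.

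Hox genes encode homeodomain transcription factors that give cells along the head-to-tail axis their regional identity. Each cluster is a row of genes numbered by paralogue group, and the order along the chromosome follows the order of use in the embryo, with low numbers expressed early and towards the head and high numbers late and towards the tail. HOX proteins bind DNA together with TALE partners of the PBX, MEIS and PKNOX families, while Polycomb and Trithorax complexes keep the clusters silent or active. In the urogenital tract, posterior Hox genes pattern the ducts and the external genitalia, and the fetal gonad itself arises in intermediate mesoderm of the trunk.

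All values below are log2 of the array signal after each array had been scaled to a common median and signals under 5 had been raised to 5, so that 2.32 is the lowest value possible. A probe is called well above background where the scanner software said so, and a probe is not compared in level with any other probe. A change is the difference of 2 genotype means on this log2 scale, where 1 is a 2-fold difference.

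Of the 36 genes with a probe, 26 were well above background on all 6 arrays, which is 72.2% against 75.3% of all genes with a probe. Another 4 were well above background on some arrays, and 6 on none. In the Hoxa cluster, *Hoxa2*, *Hoxa3*, *Hoxa4*, *Hoxa5*, *Hoxa7*, *Hoxa9* and *Hoxa10* were seen on all arrays. In the Hoxb cluster these were *Hoxb2*, *Hoxb3*, *Hoxb5*, *Hoxb6*, *Hoxb7*, *Hoxb9* and *Hoxb13*. In the Hoxc cluster they were *Hoxc4*, *Hoxc5*, *Hoxc8*, *Hoxc9* and *Hoxc10*, and in the Hoxd cluster *Hoxd1*, *Hoxd3*, *Hoxd4*, *Hoxd8*, *Hoxd9*, *Hoxd10* and *Hoxd11*. Detection thus covered every paralogue number from 1 to 11 in at least 1 cluster.

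**Figure D1:**
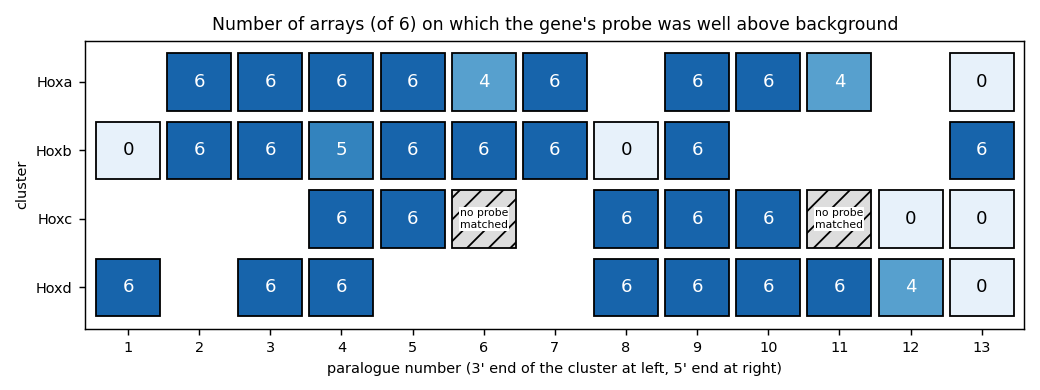
Number of arrays, of 6, on which each Hox gene was well above background (number and shade in each box), by cluster (rows) and paralogue number (columns). Hatched boxes are the 2 genes without a matched probe, and empty places are genes that the cluster lacks or that were not among the 38. The boxes at 0 are *Hoxb1*, *Hoxb8*, *Hoxc12* and the group 13 genes other than *Hoxb13*.

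By position, 6 of the 7 genes of groups 1 to 3 were well above background on all arrays, 11 of the 14 with a probe in groups 4 to 8, and 9 of the 15 with a probe in groups 9 to 13. The genes seen on no array lay mostly at the 5′ end of the clusters, as 4 of the 6 belonged to groups 12 and 13. *Hoxa13* and *Hoxd13*, which pattern the digits and the genital tubercle, stayed between 2.32 and 2.80 on every array. *Hoxc12* and *Hoxc13*, the latter a gene of hair follicles and nails, read between 2.32 and 2.97. The exception in group 13 was *Hoxb13*, known from the prostate and the tail end of the spine, which was well above background on all 6 arrays.

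The other members seen on no array were *Hoxb1* and *Hoxb8*. *Hoxb8*, at the centre of its cluster, read between 2.32 and 2.6. *Hoxb1*, which marks a segment of the hindbrain, was spotted 10 times on each array. Its median scaled signal was 12.6 on Nanos2+/- replicate 1 and between 3.0 and 3.9 on the other 5 arrays, and 1 of the 10 spots was well above background on Nanos2+/- replicate 1 and 1 on Nanos2-/- replicate 1. The raised median of that gene was thus seen on 1 control array.

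At the 5′ end of the Hoxd cluster, 3 neighbours differed in detection: *Hoxd11* was well above background on all arrays, *Hoxd12* on both arrays of Nanos2+/- and of Nanos2-/-_Tg+ but neither of Nanos2-/-, and *Hoxd13* on none. The 100 bases before the transcription start of these genes are printed below from RefSeq (GRCm38.p6), with both annotated starts of *Hoxd11*, together with those of *Hoxa13* and *Hoxb8*, 2 further genes seen on no array. Capitals mark 4 motifs on either strand. The TATA box was searched as TATAAA. The letters CCAAT stood for the box of that name. The GC box was searched as GGGCGG, whose copies overlap each other before *Hoxd13*. A joint site of PBX and HOX proteins was searched as TGATTNAT. Each stretch is written 5′ to 3′ on the strand of its gene.

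Hoxd13 (chr2:74668125-74668224, plus strand): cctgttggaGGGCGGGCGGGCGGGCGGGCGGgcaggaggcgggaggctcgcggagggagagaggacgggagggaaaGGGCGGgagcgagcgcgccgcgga
Hoxd12 (chr2:74674913-74675012, plus strand): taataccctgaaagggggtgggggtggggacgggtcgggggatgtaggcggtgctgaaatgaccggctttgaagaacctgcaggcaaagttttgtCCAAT
Hoxd11 upstream start (chr2:74679458-74679557, plus strand): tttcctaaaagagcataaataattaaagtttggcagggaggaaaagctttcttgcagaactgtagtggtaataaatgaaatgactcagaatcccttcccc
Hoxd11 downstream start (chr2:74682223-74682322, plus strand): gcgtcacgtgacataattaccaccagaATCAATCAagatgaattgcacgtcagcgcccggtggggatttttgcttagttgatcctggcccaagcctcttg
Hoxa13 (chr6:52260881-52260980, minus strand): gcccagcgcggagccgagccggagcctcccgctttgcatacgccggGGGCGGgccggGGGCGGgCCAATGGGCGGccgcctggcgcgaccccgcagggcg
Hoxb8 (chr11:96281805-96281904, plus strand): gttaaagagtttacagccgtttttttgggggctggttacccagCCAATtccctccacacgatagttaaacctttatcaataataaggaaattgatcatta

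The upstream stretches differed in base composition. G and C made up 80.0% of the 100 bases before *Hoxd13*, with 15 CpG pairs, and 83.0% before *Hoxa13*, with 16 CpG pairs. The values were 56.0% and 4 pairs for *Hoxd12*, 37.0% and 0 pairs for the upstream start of *Hoxd11*, 50% and 5 pairs for its downstream start, and 38% and 2 pairs for *Hoxb8*. Among the stretches printed, the genes seen on no array thus included both the richest in CpG pairs and one of the poorest. *Hoxb8* was not poor in CpG in the longer promoter windows described next. There, the ratio of observed to expected pairs was 0.97 for *Hoxb8*, 0.92 for *Hoxa13* and 0.9 for *Hoxd13*. For *Hoxb1*, also seen on no array, it was 0.38.

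Promoter windows of 300 bases (250 before the start and 50 after it) were found for 22 of the 38 genes, 24 windows in all, and were set beside 32544 windows of all genes in the same table. The median G and C content was 57.6% in the Hox windows (39.7% to 81.0%) and 53.0% in all windows. The ratio of observed to expected CpG pairs had a median of 0.63 against 0.39, and was above 0.6 in 12 of the 24 Hox windows (50%) and in 35.7% of all windows. CCAAT was present in 15 of the Hox windows (62.5%, against 37.4% of all), GGGCGG in 10 (41.7%, against 35.9%), TATAAA in 4 (16.7%, against 13.6%) and TGATTNAT in 2 (8.3%, against 3.2%). The TGATTNAT letters were those of *Hoxa2* and of the downstream start of *Hoxd11*. Windows of 1 family share ancestry and are not independent, so these shares are given as a description.

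The *Nanos2* probe gave the check of the labels: it read 9.42 and 10.78 in Nanos2+/-, 2.32 on both Nanos2-/- arrays, and 13.29 and 14.25 in Nanos2-/-_Tg+. Between 64.1% and 66.7% of all probes were well above background per array.

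None of the 30 tested Hox genes was called different between Nanos2-/- and Nanos2+/- at an adjusted p below 0.05 (limma with Benjamini-Hochberg adjustment over all probes) with at least a 2-fold change, beside 0.0462% of all genes tested. The lowest adjusted p among the 30 was 0.360. At an unadjusted limma p below 0.05, 3 of the 30 stood out (10%), *Hoxa11*, *Hoxc10* and *Hoxd12*, beside 8.49% of all genes. The 2 genotypes did not overlap on their arrays for 11 of the 30 (36.7%), beside 35.9% of all genes, and the methods' t-test (unadjusted p below 0.05 with a 2-fold change, the rule by which the study counted its genes) listed 0, beside 0.555% of all genes. The shares of Hox genes were thus near those of the array as a whole.

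*Hoxd12*, a gene of limb and digit patterning, was the member that was dim on both arrays of 1 genotype and bright on both of another. It read 4.27 and 5.84 in Nanos2+/-, 3.52 and 3.64 in Nanos2-/-, and 4.58 and 4.54 in Nanos2-/-_Tg+. Both Nanos2-/- arrays lay under every array of the other genotypes and were not well above background, and the 2 control arrays were 1.57 apart. The change from Nanos2+/- to Nanos2-/- was -1.48 ± 0.44 (SE, n = 2 arrays each; limma adjusted p = 0.360). As the Nanos2-/- arrays (mean 3.58) were not well above background, their level was taken as a bound of 3.64. The Nanos2+/- mean (5.06) was 2.67-fold above that bound. This ratio took no account of the spread between arrays and is not a lower limit. The limma interval of the change was -2.5 to -0.45. The gene entered the test through the genotypes in which it was bright. The change and the ratio both leaned on Nanos2+/- replicate 2: without it the change was -0.69 and the ratio 1.55-fold. Without Nanos2+/- replicate 1 they were -2.26 and 4.60-fold. Since the dim readings set the size of the change, it was -0.76 with a floor of 20 and -0.77 with normexp background correction.

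*Hoxa11*, which acts in the uterus, the vas deferens and the limb, read 4.11 and 2.93 in Nanos2+/-, 5.76 and 4.08 in Nanos2-/-, and 4.65 and 5.16 in Nanos2-/-_Tg+. It was well above background on 1 array each of Nanos2+/- and Nanos2-/- and on both of Nanos2-/-_Tg+, through which it entered the test. Nanos2-/- overlapped the controls, since its replicate 2 lay just under the higher control. The change was 1.40 ± 0.57 (SE, n = 2 each; limma adjusted p = 0.524), and it was 0.72 with a floor of 20 and -0.16 with normexp background correction. *Hoxa10*, its neighbour with a part in the same ducts, read 5.92 and 5.35 in Nanos2+/-, 6.94 and 5.04 in Nanos2-/-, and 6.18 and 6.44 in Nanos2-/-_Tg+. The Nanos2-/- arrays enclosed all the others and were 1.91 apart, the widest gap between replicates among the Hox genes in that genotype.

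*Hoxc10*, a gene of lumbar motor neurons and the hindlimb, read 5.49 and 5.44 in Nanos2+/-, 5.82 and 7.45 in Nanos2-/-, and 5.60 and 5.78 in Nanos2-/-_Tg+. A single array, Nanos2-/- replicate 2, held the high value, and the other 5 lay within 5.44 to 5.82. The change of 1.17 ± 0.46 (SE, n = 2 each; limma adjusted p = 0.504) became 1.98 with an adjusted p of 0.0342 without Nanos2-/- replicate 1, the only call of any Hox gene under any setting, and it was 0.36 without replicate 2. A second *Hoxc10* probe, well above background on 1 array, was not tested.

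Among members seen on all arrays, the largest positive changes besides *Hoxc10* were those of *Hoxb13* (0.70 ± 0.39), *Hoxd3* (0.69 ± 0.30) and *Hoxa4* (0.51 ± 0.31). *Hoxd3*, which shapes the first neck vertebrae, read 7.16 and 6.38 in Nanos2+/-, 7.60 and 7.31 in Nanos2-/-, and 7.26 and 6.82 in Nanos2-/-_Tg+. Its Nanos2-/- arrays were the highest of the 6, and its second tested probe gave 0.38. The largest negative changes were those of *Hoxb7* (-0.60 ± 0.30), *Hoxc9* (-0.26 ± 0.18), *Hoxb9* (-0.25 ± 0.31) and *Hoxa7* (-0.09 ± 0.20). *Hoxb7*, whose promoter is used to mark the Wolffian duct and ureteric bud, read 8.88 and 9.16 in Nanos2+/-, 8.48 and 8.36 in Nanos2-/-, and 9.16 and 8.27 in Nanos2-/-_Tg+. The Nanos2-/- arrays lay under the controls, while those with the transgene lay at the 2 ends of the range.

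*Hoxc9*, which defines thoracic motor neurons, read 10.70 and 10.82 in Nanos2+/-, 10.56 and 10.44 in Nanos2-/-, and 10.66 and 10.69 in Nanos2-/-_Tg+, the narrowest range of the 17 genes whose values are given in full. *Hoxb9*, a gene of the rib cage, read 7.62 and 7.70 in Nanos2+/-, 7.89 and 6.93 in Nanos2-/-, and 7.41 and 7.67 in Nanos2-/-_Tg+, so that the Nanos2-/- arrays enclosed the controls with this probe. Its second tested probe read 7.57 and 7.71, 7.46 and 6.67, and 7.36 and 6.57 in the same order, with changes of -0.57 and -0.68 against the controls and every array of both null genotypes under them. The probes of *Hoxb9* thus differed in whether the genotypes overlapped. *Hoxa7* read 10.16 and 10.31 in Nanos2+/-, 10.03 and 10.27 in Nanos2-/-, and 10.02 and 9.77 in Nanos2-/-_Tg+. Its 2 Nanos2-/-_Tg+ arrays were the lowest of the 6.

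**Figure D2:**
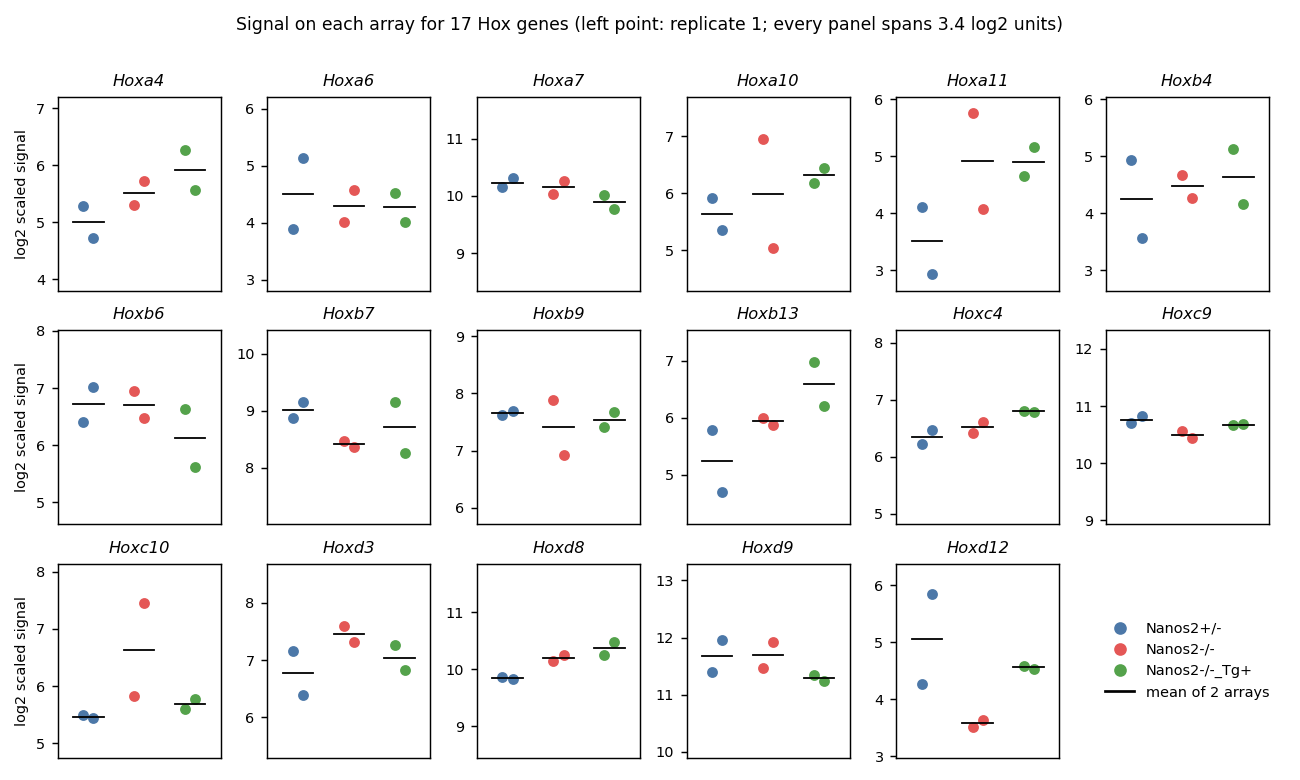
Log2 scaled signal on each array for the 17 Hox genes whose values are given in full, with 2 arrays (points, replicate 1 on the left) and their mean (bar) per genotype. Each panel spans the same 3.4 log2 units. *Hoxd12* was lowest on both Nanos2-/- arrays, and *Hoxc10* was high on 1 Nanos2-/- array at 7.45.

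Between Nanos2-/-_Tg+ and Nanos2+/-, again 0 of the 30 Hox genes were called by limma with adjustment, beside 0.108% of all genes. The lowest adjusted p was 0.243, for *Hoxb13*. At an unadjusted limma p below 0.05 there were 5 (16.7%), beside 10.2% of all genes: *Hoxa4*, *Hoxa11*, *Hoxb13*, *Hoxc4* and *Hoxd8*, all higher in Nanos2-/-_Tg+. The genotypes did not overlap for 13 of the 30 (43.3%), beside 38.2% of all genes, and the methods' t-test listed 0, beside 0.755%.

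*Hoxb13* read 5.78 and 4.69 in Nanos2+/-, 6.0 and 5.87 in Nanos2-/-, and 6.98 and 6.20 in Nanos2-/-_Tg+. Every array of the 2 null genotypes lay above both controls, and those with the transgene were highest. Its change against the controls was 1.35 ± 0.39 (SE, n = 2 each; limma adjusted p = 0.243), and it ranged from 0.48 to 1.89 over the 19 settings in which it was recomputed. *Hoxa11* gave 1.39 ± 0.57 (limma adjusted p = 0.412), but it had entered the test only through Nanos2-/-_Tg+, where it was bright, and the lower control array was not well above background. Its change was 0.58 with a floor of 20 and -0.13 with normexp background correction.

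*Hoxa4*, a gene of the neck vertebrae that is also known from germ cells of the adult testis, read 5.28 and 4.73 in Nanos2+/-, 5.30 and 5.73 in Nanos2-/-, and 6.27 and 5.56 in Nanos2-/-_Tg+. No array of the 2 null genotypes overlapped the controls with this probe, although Nanos2-/- replicate 1 exceeded the higher one by little. The change from Nanos2+/- to Nanos2-/-_Tg+ was 0.91 ± 0.31 (limma adjusted p = 0.309). With normexp background correction it was 0.13, and that from Nanos2+/- to Nanos2-/- was -0.2. A second *Hoxa4* probe, well above background on no array, was not tested. *Hoxd8* read 9.87 and 9.82 in Nanos2+/-, 10.15 and 10.25 in Nanos2-/-, and 10.25 and 10.48 in Nanos2-/-_Tg+. Its arrays were close within each genotype, with a change of 0.52 ± 0.19 (limma adjusted p = 0.335). *Hoxc4* read 6.23 and 6.47 in Nanos2+/-, 6.42 and 6.61 in Nanos2-/-, and 6.81 and 6.78 in Nanos2-/-_Tg+, a change of 0.45 ± 0.19 (limma adjusted p = 0.426). Both transgenic arrays of *Hoxc4* lay above the other 4.

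Among members seen on all arrays, the largest negative changes were those of *Hoxb6* (-0.59 ± 0.37), *Hoxd9* (-0.38 ± 0.26), *Hoxa7* (-0.34 ± 0.20) and *Hoxb7* (-0.31 ± 0.30). *Hoxb6*, a gene of the lateral plate mesoderm, read 6.41 and 7.02 in Nanos2+/-, 6.95 and 6.47 in Nanos2-/-, and 6.64 and 5.61 in Nanos2-/-_Tg+. Its low value came from Nanos2-/-_Tg+ replicate 2 alone. *Hoxd12*, seen on some arrays, gave -0.50 ± 0.44, or 0.29 without Nanos2+/- replicate 2. *Hoxd9*, which patterns the forelimb and the lumbosacral spine, read 11.39 and 11.95 in Nanos2+/-, 11.46 and 11.92 in Nanos2-/-, and 11.34 and 11.24 in Nanos2-/-_Tg+. Both transgenic arrays were lowest, and its second tested probe gave -0.28.

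The other members seen on some arrays only were *Hoxa6* and *Hoxb4*, with changes between -0.24 and 0.39. *Hoxa6* read 3.89 and 5.13 in Nanos2+/-, 4.02 and 4.57 in Nanos2-/-, and 4.53 and 4.02 in Nanos2-/-_Tg+, and *Hoxb4*, studied in blood stem cells, read 4.93 and 3.57, 4.68 and 4.27, and 5.12 and 4.17 in the same order. In both, the 2 control arrays lay farther apart than any 2 genotype means.

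**Figure D3:**
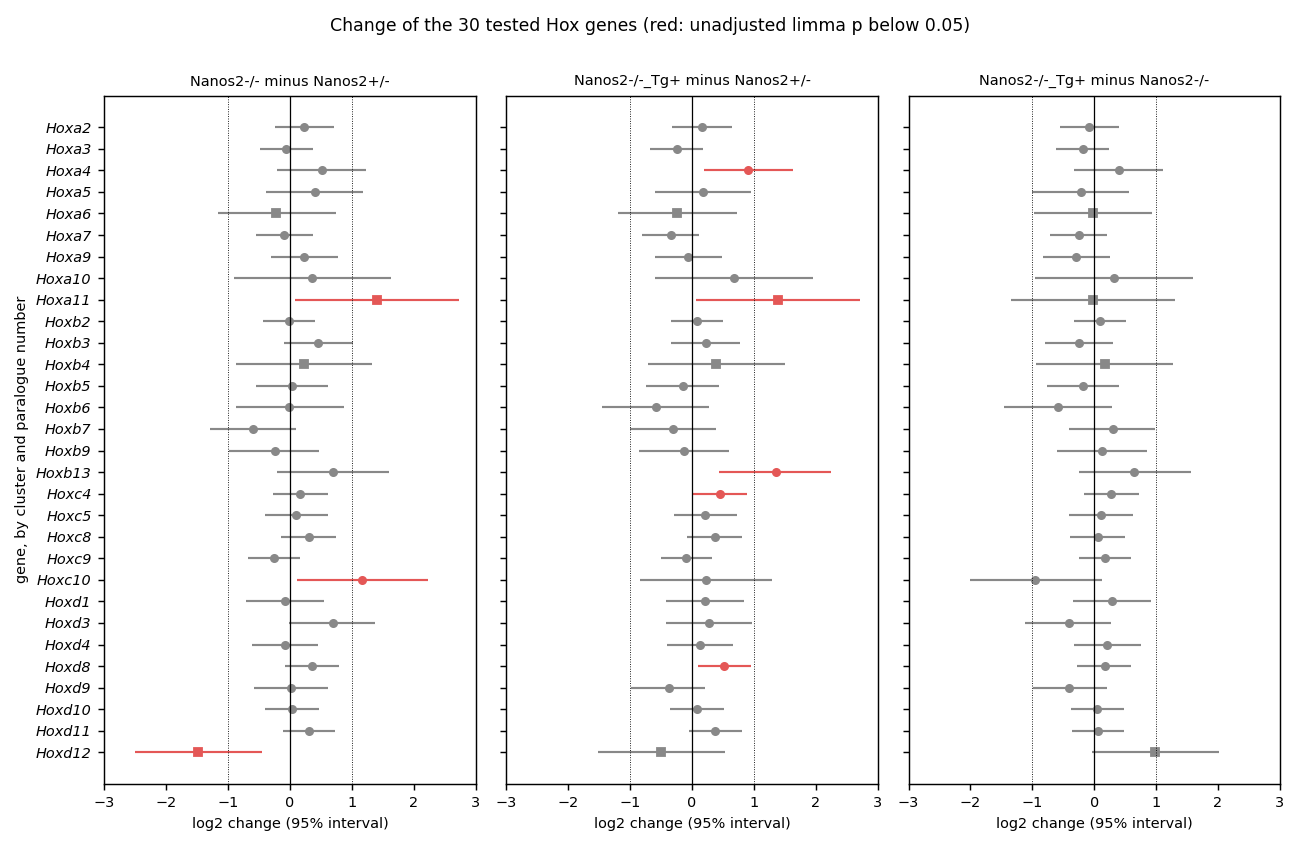
Log2 change of the 30 tested Hox genes in the 3 comparisons, with 95% intervals from limma (lines), ordered by cluster and paralogue number. Squares are the 4 genes well above background on some arrays only, red marks an unadjusted p below 0.05 and dotted lines a 2-fold change. Red appears for 3 genes in the first panel, 5 in the second and 0 in the third.

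Between Nanos2-/-_Tg+ and Nanos2-/-, which shared a slide, 0 of the 30 Hox genes were called (beside 0.0154% of all genes; lowest adjusted p 1.00, limma), and 0 had an unadjusted limma p below 0.05 (beside 1.73% of all genes). The methods' t-test listed 0, beside 0.1% of all genes. The arrays did not overlap for 12 of the 30 (40%), beside 31% of all genes. Every change was under 2-fold and lay between -0.95 and 0.98. *Hoxd12* was at the upper end with 0.98 ± 0.44 (limma adjusted p = 1.00, interval -0.04 to 2.01). Its Nanos2-/-_Tg+ mean (4.56) was 1.89-fold above the bound of 3.64 for Nanos2-/- (mean 3.58). That ratio is not a lower limit. The change was 0.24 with a floor of 20 and 0.07 with normexp background correction. With these 4 arrays fitted alone, *Hoxd12* was the 1 Hox gene with an unadjusted limma p below 0.05, beside 2.6% of all genes. Its adjusted p was 0.934, and it had entered the test through genotypes in which it was bright, Nanos2-/-_Tg+ among them. *Hoxc10* was at the lower end with -0.95 ± 0.46, on the strength of the 1 high Nanos2-/- array. *Hoxb13* gave 0.65 ± 0.39, *Hoxa4* 0.40 ± 0.31, *Hoxa10* 0.32 ± 0.55 and *Hoxb7* 0.30 ± 0.30, while *Hoxb6* gave -0.58 ± 0.37, *Hoxd3* -0.41 ± 0.30 and *Hoxd9* -0.40 ± 0.26.

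The intervals limit how large an unseen change could be only as far as the spread between arrays goes. Against Nanos2+/- they take no account of slide or of the choice of background correction. With normexp, *Hoxd8*, *Hoxd9*, *Hoxa7* and *Hoxc9* changed by 1.14, 0.94, 0.71 and 0.61 from Nanos2+/- to Nanos2-/-, each above its interval. The median of all genes was 0.70 under that correction. The 95% interval of the change lay within 2-fold in both directions for 18 of the 30 Hox genes from Nanos2+/- to Nanos2-/- (60%, against 84.3% of all genes), for 21 from Nanos2+/- to Nanos2-/-_Tg+ (70%, against 82%), and for 20 from Nanos2-/- to Nanos2-/-_Tg+ (66.7%, against 90.6%). *Hoxd10* (0.03 ± 0.19, interval -0.40 to 0.47) and *Hoxb2* (-0.01 ± 0.18, interval -0.43 to 0.41) were among those with narrow intervals from Nanos2+/- to Nanos2-/-. The median SE was 0.253 for the Hox genes and 0.213 for all genes.

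Taken over the 30 genes, the median change was 0.13 from Nanos2+/- to Nanos2-/- (all genes -0.07), 0.17 from Nanos2+/- to Nanos2-/-_Tg+ (all genes -0.02) and 0.06 from Nanos2-/- to Nanos2-/-_Tg+ (all genes 0.05). The change was above 0 for 19 of the 30 in the first (63.3%, against 38.4% of all genes), 19 in the second (63.3%, against 46.6%) and 17 in the third (56.7%, against 62.5%). The first 2 comparisons share the control arrays, and 16 genes were above 0 in both and 8 below 0 in both. Relative to all genes, the Hox median was 0.21 higher in the first and 0.19 higher in the second, but with normexp background correction all genes moved to medians of 0.70 and 0.68 while the Hox medians were 0.12 and 0.11, which turned the relative shift to -0.58 and -0.57. The change of 15 of the 30 genes in the first comparison, 12 in the second and 3 in the third had the opposite sign under that correction. Under the other settings the relative shift lay between 0.08 and 0.33 in the first comparison, 0.05 and 0.26 in the second, and -0.11 and 0.11 in the third.

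The 26 members seen on all arrays had the same medians of 0.13, 0.17 and 0.06. Of these, 1 had an unadjusted p below 0.05 in the first comparison (3.85%, against 7.35% of the 12454 genes on all arrays), 4 in the second (15.4%, against 9.13%) and 0 in the third (against 1.25%). The median size of the change without its sign was 0.24, 0.24 and 0.23, against 0.17, 0.18 and 0.11.

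**Figure D4:**
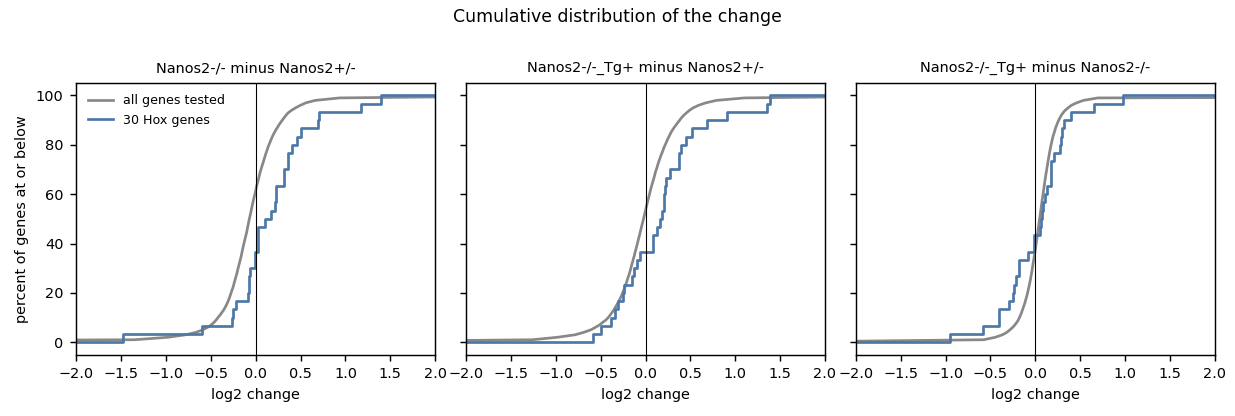
Percent of genes (y axis) at or below each log2 change (x axis) for the 30 tested Hox genes (steps) and all genes tested (smooth line) in the 3 comparisons. Around the middle the steps lie to the right of the line in the first 2 panels, with medians of 0.13 and 0.17 against -0.07 and -0.02, but they cross it lower down, and in the third panel the medians are 0.06 and 0.05.

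By cluster, the median change from Nanos2+/- to Nanos2-/- was 0.23 over the 9 tested Hoxa genes, 0.01 over 8 Hoxb genes, 0.17 over 5 Hoxc genes and 0.02 over 8 Hoxd genes. From Nanos2+/- to Nanos2-/-_Tg+ these were 0.16, -0.02, 0.23 and 0.17. By position, groups 1 to 3 gave 0.11 and 0.18, groups 4 to 8 gave 0.10 and 0.18, and groups 9 to 13 gave 0.23 and 0.08. These medians were not tested. Each cluster held changes of both signs in every comparison.

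**Figure D5:**
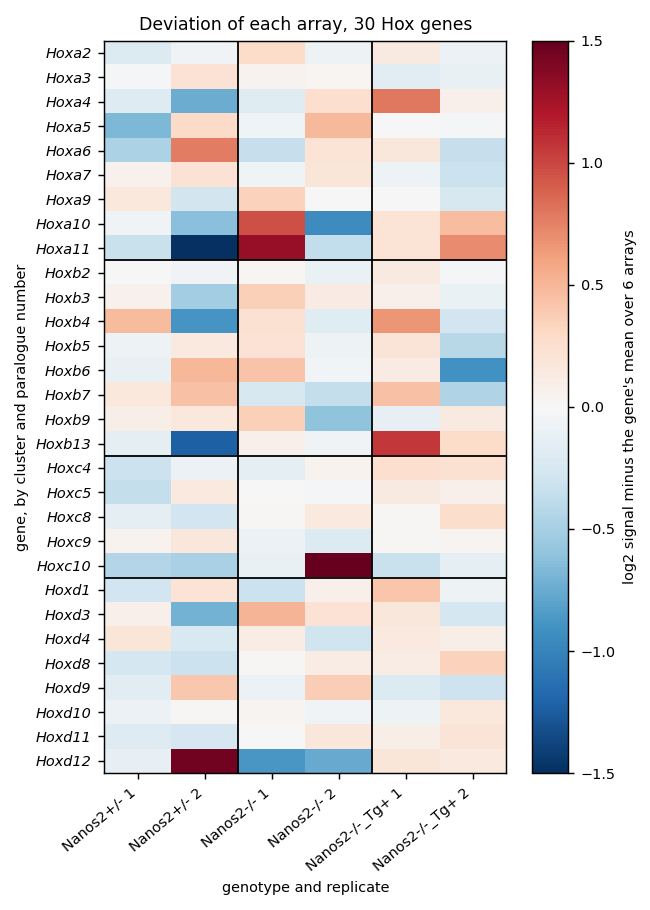
Log2 signal of each array minus the gene's mean over the 6 arrays (colour, cut at 1.5 in both directions) for the 30 tested Hox genes, by cluster and paralogue number (rows) and by genotype and replicate (columns). The strongest single cells are *Hoxd12* on Nanos2+/- replicate 2, *Hoxc10* on Nanos2-/- replicate 2 and *Hoxa11* on Nanos2+/- replicate 2.

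The spread between replicates of a genotype was read in the same way. The median distance of the Hox genes between the 2 arrays was 0.424 in Nanos2+/- (all genes 0.333), 0.295 in Nanos2-/- (0.180) and 0.236 in Nanos2-/-_Tg+ (0.157), and 0.256, 0.269 and 0.231 for the 26 members seen on all arrays. The distance was at least 2-fold for *Hoxa6*, *Hoxa11*, *Hoxb4*, *Hoxb13* and *Hoxd12* in Nanos2+/- (16.7% of the 30, against 3.9% of all genes), for *Hoxa10*, *Hoxa11* and *Hoxc10* in Nanos2-/- (10% against 1.6%), and for *Hoxb6* in Nanos2-/-_Tg+ (3.3% against 2.1%). With 2 arrays against 2, an exact two-sided permutation test of a single gene cannot go below p = 0.333.

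Genes that work with the Hox clusters were taken from lists, and none of their genes was called in any comparison by limma with adjustment. Counts at an unadjusted p below 0.05 are to be read beside the shares over all genes, 8.49%, 10.2% and 1.73% in the 3 comparisons. All 9 TALE partners were well above background on all arrays. Their median changes were -0.14 (Nanos2-/- against Nanos2+/-), -0.03 (Nanos2-/-_Tg+ against Nanos2+/-) and 0.09 (Nanos2-/-_Tg+ against Nanos2-/-), and 1 had an unadjusted p below 0.05, *Pbx4*, lower by 0.77 on the log2 scale in the second comparison (change -0.77 ± 0.20). *Meis1* gave 0.08, 0.38 and 0.29 in the same order.

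Of 29 Polycomb genes, which keep Hox clusters silent, 28 were tested and had median changes of 0.03, 0.07 and 0.09. An unadjusted p below 0.05 was reached by 1 in the first comparison (*Aebp2*, 0.69 ± 0.28; 3.57% of the 28), 6 in the second (21.4%, against 10.2% of all genes) and 0 in the third. The 6 were *Mtf2* (0.80 ± 0.29), *Aebp2* (0.75 ± 0.28), *Pcgf6*, *Bmi1* and *Suz12*, which were higher in Nanos2-/-_Tg+, and *Ezh1*, which was lower. *Ezh2*, the main methyltransferase of the complex, gave 0.21, 0.26 and 0.05, and the largest change in the third comparison was 0.29, in *Jarid2*. Of 13 Trithorax genes, 10 had a probe and were tested, with medians of -0.16, -0.11 and 0.04 and 0 at an unadjusted p below 0.05 in each comparison. Their largest changes were in *Kmt2b* (-0.33 and -0.38) and *Kdm6b* (0.18).

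Among upstream regulators, the caudal genes *Cdx1*, *Cdx2* and *Cdx4*, which activate posterior Hox genes in the growing tail, were well above background on no array. The 9 tested had medians of 0.04, 0.28 and 0.21, with 2, 2 and 0 at an unadjusted p below 0.05 (22.2% in the first 2, against 8.49% and 10.2% of all genes). In the first comparison these were the retinoic acid receptor gene *Rarg* (0.64 ± 0.23) and *Egr2*, which was lower (-0.62 ± 0.20). In the second they were *Rarg* (0.85 ± 0.23) and *Cyp26a1*. *Cyp26a1*, which encodes an enzyme that degrades retinoic acid, had the largest changes (1.03, 1.69 and 0.66), with readings of 3.71 and 4.62 in Nanos2+/-, 5.17 and 5.22 in Nanos2-/-, and 6.85 and 4.85 in Nanos2-/-_Tg+. A single transgenic array held its highest value.

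Of 13 genes beside the clusters, 11 were tested, with medians of 0.00, 0.14 and 0.15 and 1, 2 and 1 at an unadjusted p below 0.05. *Evx2*, a homeobox gene next to *Hoxd13*, was well above background on all arrays and read 4.34 and 4.68 in Nanos2+/-, 4.78 and 4.55 in Nanos2-/-, and 5.03 and 5.66 in Nanos2-/-_Tg+. Both transgenic arrays were highest, with 0.84 ± 0.26 against Nanos2+/- (limma adjusted p = 0.271) and 0.68 ± 0.26 against Nanos2-/- (1.00). *Skap1*, at the 3′ side of the Hoxb cluster, read 6.24 and 5.46 in Nanos2+/- and between 4.57 and 4.91 on the other 4 arrays (-1.13 ± 0.29 and -1.11 ± 0.29, limma adjusted p = 0.277 and 0.201).

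Since the Hox genes are also expressed outside the gonad proper, markers of the mesonephros and of the cell types of the testis were read beside them. Of 14 mesonephros genes, 10 were tested, and *Pax2*, *Ehf* and *Ret* were well above background on no array. The summed scaled signal of the 10 ran from 4168 to 5962 in Nanos2+/-, 4034 to 4587 in Nanos2-/- and 4229 to 4408 in Nanos2-/-_Tg+. Such a sum follows its brightest probes, here above all *Wnt4* (11.13 and 11.59 in Nanos2+/-), and is not a measure of tissue content. An unadjusted p below 0.05 was reached by 4, 5 and 1 of the 10 (40%, 50% and 10%, against 8.49%, 10.2% and 1.73% of all genes), in mixed directions. *Cdh16* read 6.05 and 8.60 in Nanos2+/-, 7.05 and 3.94 in Nanos2-/-, and 4.57 and 5.12 in Nanos2-/-_Tg+. The control replicate with the higher *Cdh16* was also the one with the high *Hoxd12* and the low *Hoxa11* and *Hoxb13*, and the part of mesonephric tissue in the Hox values was not tested. The 12 mesenchyme genes had summed signals of 118716 to 130732, 107595 to 114938 and 122500 to 132985 in the 3 genotypes, with 0 at an unadjusted p below 0.05.

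In the other lists, counts at an unadjusted p below 0.05 in the 3 comparisons were 4, 3 and 0 of 16 germ cell genes, 1, 1 and 0 of 12 Sertoli cell genes, 0 of 8 fetal Leydig cell genes in each, 1, 0 and 0 of 10 endothelial genes, 0, 1 and 1 of 9 macrophage genes and 0, 1 and 4 of 10 red blood cell genes. The germ cell counts were 25% and 18.8% in the first 2 comparisons, against 8.49% and 10.2% of all genes, and the red blood cell count was 40% in the third, against 1.73%. The germ cell genes of the first were *Stra8* (2.11), *Dnmt3l* (-2.22), *Dnd1* (-0.81) and *Tdrd1* (-0.66). Those of the second were *Stra8* (2.93), *Dnmt3l* (-1.90) and *Dnd1* (-0.82). The study itself reported *Stra8*, *Dnmt3l* and *Tdrd1* as altered without *Nanos2*. Over the 16 genes the median changes were -0.05 and 0.15. The summed germ cell signal was 179111 to 282383 in Nanos2+/-, 235138 to 273304 in Nanos2-/- and 274258 to 280882 in Nanos2-/-_Tg+, and that of the red blood cell genes 363216 to 368184, 297641 to 336273 and 445069 to 452258. These sums too follow their brightest probes and are not measures of cell content. For germ cells the brightest were *Dppa5a* (15.57 and 16.86 in Nanos2+/-) and *Dppa3* (14.86 and 15.95). *Dmrt1*, taken from the Sertoli cell list, changed by 1.25 ± 0.31 in Nanos2-/- against Nanos2+/- (limma adjusted p = 0.267). It was listed by the methods' t-test in Nanos2-/-_Tg+ against Nanos2+/- (1.46 ± 0.31, limma adjusted p = 0.147). The median change of the 12 genes of that list was -0.01 in the same comparison. The part of these differences in the Hox values was not tested.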

How the data were processed

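Cy3-labelled RNA was hybridized to Agilent whole mouse genome arrays (4x44K format, 1 colour), and the intensities deposited are the background-subtracted signals of Feature Extraction (version 9.5.3.1 per the file headers, 9.5 in the submitters' processing notes). The authors' value table was deposited as intensity on the same scale and differed from the scanner files by rounding. Spots with outlier flags were left out, spots of a probe averaged, each array scaled to a common 50th percentile, signals under 5 raised to 5 and log2 taken. A probe was kept where both arrays of 1 or more genotypes had it well above background (26711 of 41174). Genes were named through RefSeq accessions (23374 probes), and a gene was represented by its brightest probe seen on all arrays, failing that by a tested probe. Genotypes were compared with limma 3.58.1 in R 4.3.3 on all 6 arrays, checked on simulated data, and with the methods' t-test (unadjusted p below 0.05 and 2-fold). Array precision is limited by the number of arrays, 2 for each genotype. The limma p-values rest on the spread between arrays of a genotype, pooled over the 3 genotypes and moderated towards that of all probes. The fit had 3 residual and 4.55 prior degrees of freedom. The methods' t-test uses only the arrays compared. Values in every array are given for Hox genes at an unadjusted p below 0.05, among the 4 largest changes in each direction, or seen on some arrays only. The members and lists were chosen with earlier results of these data known. Alternatives covered the scaling, floor, background correction (normexp on the median signal), filter, probe choice, replicate block and each array left out. Promoter windows came from RefSeq (GRCm38.p6).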

Additional observations from a re-analysis of the deposited data

How the results depend on the processing

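No Hox gene was called in any comparison under any setting except *Hoxc10*, whose change from Nanos2+/- to Nanos2-/- was 1.98 without Nanos2-/- replicate 1 (1 gene called, limma adjusted p = 0.0342, with the lone array assumed to vary like the others). The median Hox change from Nanos2+/- to Nanos2-/- (0.13) was 0.03 with no filter on dim probes and ran from 0.03 to 0.20 with 1 array left out, lowest without Nanos2+/- replicate 1, 0.06 without Nanos2-/- replicate 1 and highest without Nanos2-/- replicate 2. From Nanos2+/- to Nanos2-/-_Tg+ (0.17) it ran from 0.05, without Nanos2-/-_Tg+ replicate 1, to 0.17, with 0.10 without Nanos2+/- replicate 1, and from Nanos2-/- to Nanos2-/-_Tg+ (0.06) from 0.01 to 0.10. The cause was not tested. With all arrays kept, Hox genes at an unadjusted p below 0.05 numbered between 0 (floor of 20, beside 8.67% of all genes) and 6 (replicate block, 13.4%) in the first comparison. They numbered between 2 (normexp, 2.5%) and 6 (replicate block, 16.2%) in the second, and between 0 and 2 (replicate block, 3.24%) in the third. Under normexp the median of all probes was 0.56 and 0.52 in the comparisons with Nanos2+/- (-0.04 and -0.01 with the processing used in the report), and the changes of 15, 12 and 3 of the 30 Hox genes took the opposite sign in the 3 comparisons, *Hoxa11* in each of them. With the less strict detection flag of the software, 30 of the 36 genes were seen on all arrays instead of 26.

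The replicate numbers 1 and 2 are shared by the genotypes, and the differences between replicates correlated over probes at 0.355, 0.313 and 0.259 for the 3 pairs of genotypes. With 2 numbers this does not establish pairing. With a replicate block, 0 Hox genes were called, and those at an unadjusted p below 0.05 numbered 6, 6 and 2 instead of 3, 5 and 0. The share of all genes at that limit rose too, to 13.4%, 16.2% and 3.24% from 8.49%, 10.2% and 1.73%. Slide could not be fitted as a block against Nanos2+/-.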
